A study of Rattus norvegicus with 6 samples.

Results

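The nuclear-encoded genes of oxidative phosphorylation were followed in RNA pulled out of GH4C1 cells, an established line from the rat pituitary that makes growth hormone and prolactin. Members were chosen by gene name from a table of counts: all rows named Nduf, Sdha to Sdhd, Uqcr, Cyc1, Cycs, Cox4 to Cox8 or Atp5, of which 98 are described, out of 32883 rows in the table. Of these, 37 belong to complex I, 8 are complex I assembly factors, 4 belong to complex II, 10 to complex III, 22 to complex IV and 16 to complex V, and 1 is cytochrome c. The study asked which RNAs are in direct contact with Neat1, the long noncoding RNA on which the nuclear bodies called paraspeckles are built. Wild-type cells of all 6 libraries were treated with psoralen, which crosslinks paired nucleic acid strands, and RNA was then pulled down with oligo pool A (3 libraries) or oligo pool B (3 libraries). The labels give neither the oligo sequences nor a control pool, so each comparison sets 1 pool against the other and shows no enrichment over background. Nothing in the labels says that replicates came from separate cultures, and p-values then measure the spread between these libraries, which may be technical. In bulk RNA of this kind, fewer cells and less RNA per cell cannot be told apart.

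Oxidative phosphorylation is carried out by protein complexes of the inner mitochondrial membrane. Complex I takes electrons from NADH and complex II from succinate. Complex III passes them to the small soluble carrier cytochrome c, complex IV hands them to oxygen, and complex V, the ATP synthase, uses the resulting proton gradient to make ATP. Most subunits are encoded in the nucleus, translated in the cytosol and imported, so their mRNAs start in the same compartment as Neat1, whereas a few core subunits are encoded by mitochondrial DNA. The 13 mitochondrially encoded genes are listed at 0 counts in every library, so the comparison covers the nuclear part.

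Libraries held between 1826390 and 3685899 counts. Values are given as CPM, counts scaled to a fixed library total, and a count of 0 allows up to 3 counts, or between 0.814 and 1.64 CPM. Log2 fold changes divide pool A by pool B and come from edgeR's quasi-likelihood test with TMM scaling, and adjusted p-values are Benjamini-Hochberg values over all 11582 genes tested, with a threshold of 0.05. CPM are scaled to totals, so they can differ slightly from the fold change: scaling by total counts moved the median over all genes by -0.14 and upper-quartile scaling by 0.10. Of the markers of the lactotroph and somatotroph lineage, all 6 described were detected, with a Prl count between 909 and 2578 and a Gh1 count between 342 and 634 per library. Their summed level was between 5836 and 6836 CPM with pool A and between 29343 and 36474 CPM with pool B, where the granule protein gene Chgb (log2 fold change -2.94) made up most of it. By gene, Prl, Pitx1 and Chga were higher with pool A (log2 fold changes 0.83, 1.22 and 0.63), Chgb was higher with pool B, and Gh1 and Pou1f1 did not pass. The thyrotroph hormone gene Tshb and the gonadotroph gene Fshb were at 0 in all libraries, and the 3 folliculostellate and endothelial marker genes found in the table had at most 7 counts in a library. The 4 genes of the gonadotroph list summed to between 10.3 and 16.0 CPM in pool A libraries and between 43.3 and 48.0 CPM in pool B libraries, mostly Lhb. The corticotroph, fibroblast and immune lists had overlapping ranges and at most 23.0 CPM in a library. Their part in the results was not tested.

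Calls in favour of each pool were found among the genes of complexes I, III, IV and V. Of the 85 members tested, 20 were higher with pool A, 12 were higher with pool B and 53 did not pass the threshold. Members past the threshold made up 37.6% of those tested, close to the 40.6% of all genes tested. Higher with pool A were 23.5% of them, against 18.6% of all genes, and higher with pool B were 14.1%, against 22.0%. Among all 85, 49 fold changes were above 0 and 36 below, with a median log2 fold change of 0.20 against 0.02 over all genes. The members' median was 0.06 with total counts alone, a scaling that moved the median over all genes by -0.14. The split of 20 to 12 was 14 to 14 with total counts and 21 to 9 with upper-quartile factors. Over all genes the split of 2154 to 2546 became 1709 to 2922 with total counts and 2515 to 2251 with upper-quartile factors. Without pool A replicate 1, 12 members and 1856 of all genes were higher with pool A, against 20 and 2154 with all libraries. Calls in favour of 1 pool fell to 0 in complex III for pool B without rows of shared names, in complex IV for pool A without pool A replicate 1, and in complex V for pool B with upper-quartile factors. Against a 1.5-fold change they fell to 0 for both pools in complex IV and for pool B in complex V.

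The quartiles of the tested members lay at log2 fold changes of -0.22 and 0.66, a width of 0.88 compared with 1.21 over all genes. More than 2-fold and past the threshold were 9 members higher with pool A (10.6%, against 11.1% of all genes) and 5 higher with pool B (5.88%, against 14.2% of all genes). CPM ranges of the pools did not overlap for 31 of the 85 members, or 36.5%, against 49.1% of all genes. Pool A lay above in 15 of them (18.9% of all genes) and pool B in 16 (30.2% of all genes). The values span from 2.26 for Ndufb2 to -2.12 for Sdha. Next to these ends were Ndufs3 at 1.99 and Ndufa8 at -1.22.

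**Figure D1:**
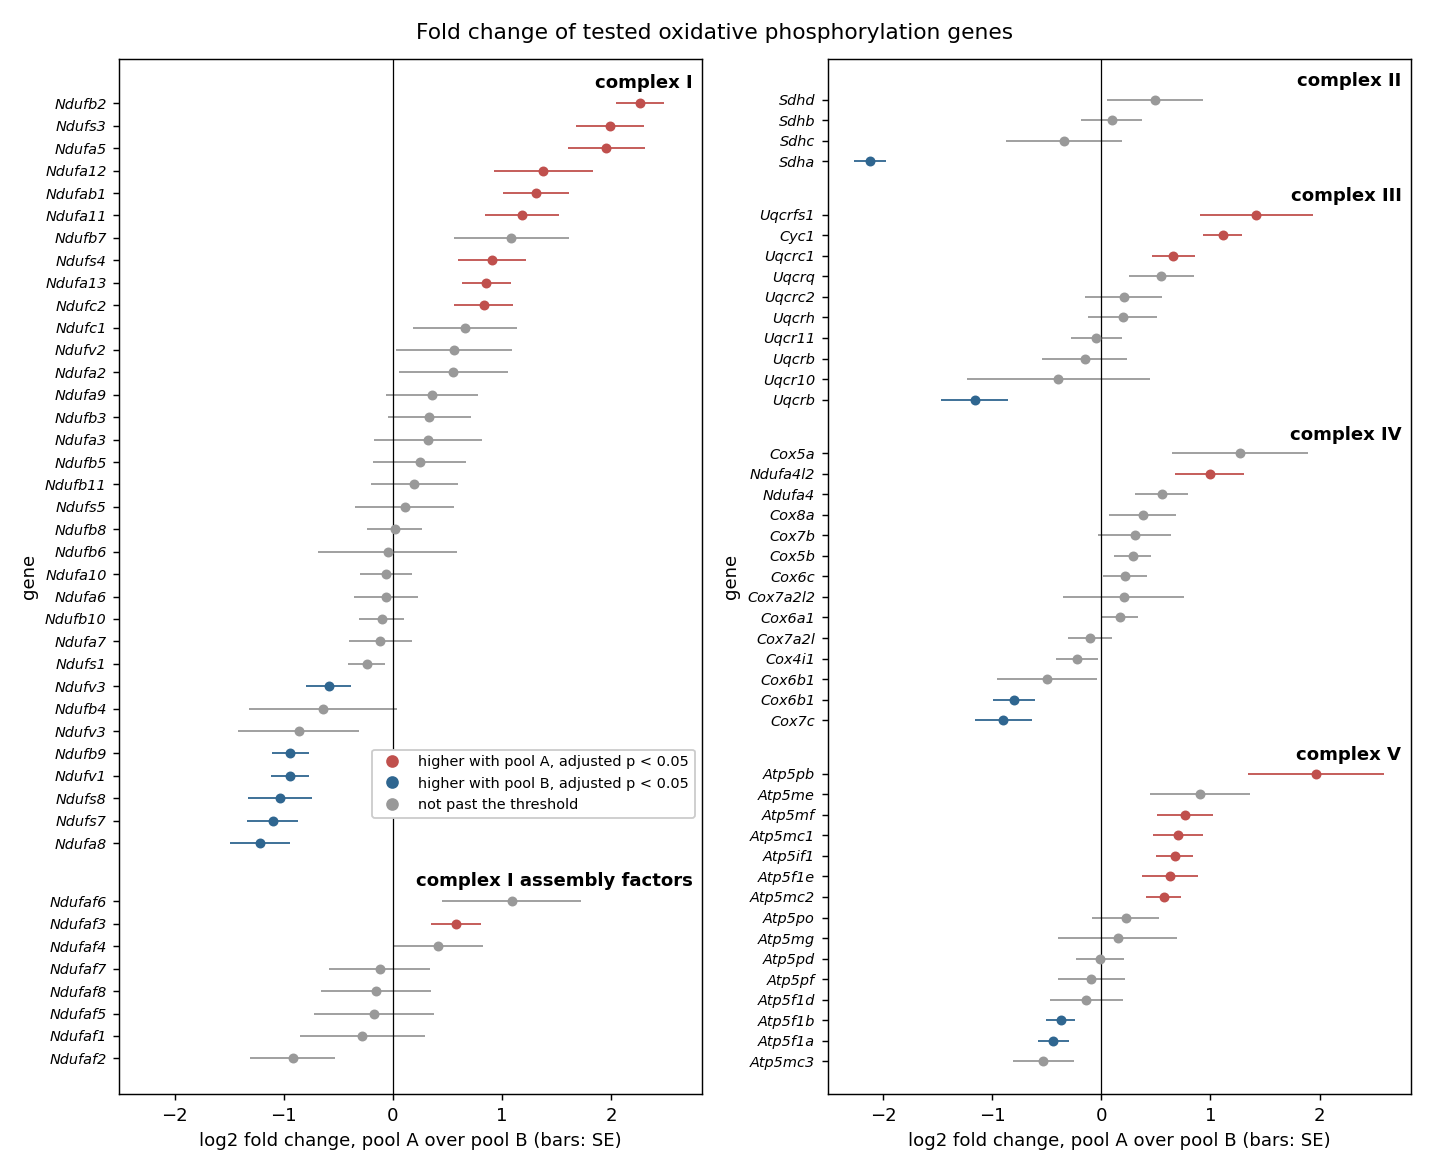
Log2 fold change of pool A over pool B (horizontal axis, points, with bars for 1 standard error) for each of the 85 tested members, grouped by complex and ordered by fold change. Red points passed the threshold in favour of pool A, blue in favour of pool B and grey points did not pass. Ndufb2 at 2.26 and Sdha at -2.12 lie at the ends, and Uqcrb, Cox6b1 and Ndufv3 each appear in 2 rows because the table holds 2 genes of that name.

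Of the 34 complex I genes tested, 9 were higher with pool A, 6 were higher with pool B and 19 did not pass, with a median log2 fold change of 0.22. Those calls are 26.5% and 17.6% of its tested genes, against 18.6% and 22.0% of all genes. The core subunits of the matrix arm, the part of complex I that protrudes from the membrane and carries the electron path from NADH to quinone, were split between the pools. Ndufs3, a core subunit of the connecting part of the arm, was higher with pool A. It had 30.7, 49.0 and 31.1 CPM with pool A and 10.9, 10.4 and 9.46 CPM with pool B, with no overlap, and a log2 fold change of 1.99 (SE 0.31, edgeR adjusted p = 6.88e-06). Ndufs7, the iron-sulfur protein that passes electrons to quinone, went the opposite way. Its values were 35.3, 24.1 and 49.3 CPM with pool A and 61.7, 118 and 80.2 CPM with pool B (log2 fold change -1.10, SE 0.23, edgeR adjusted p = 0.000382). All pool B libraries were above all pool A libraries. Ndufv1, which binds NADH and the flavin cofactor, had 86.0, 50.6 and 75.0 CPM with pool A and 140, 153 and 159 CPM with pool B. The resulting log2 fold change was -0.94 (SE 0.17, edgeR adjusted p = 6.53e-05).

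The remaining core subunits showed smaller or less certain differences. Ndufs8, an iron-sulfur protein, had 15.2, 16.6 and 17.3 CPM with pool A and 26.9, 31.2 and 52.6 CPM with pool B. The resulting log2 fold change was -1.04 (SE 0.29, edgeR adjusted p = 0.00545), and without pool B replicate 3, the highest library, it was -0.68 with an adjusted p of 0.116. Ndufs1, the largest iron-sulfur subunit, had CPM ranges that did not overlap, from 77.5 to 92.5 with pool A and from 102 to 123 with pool B, but its log2 fold change of -0.24 did not pass (edgeR adjusted p = 0.274). Ndufv2 did not pass either (log2 fold change 0.56 ± 0.53, SE). Of these 6 core subunits, 1 favoured pool A and 3 pool B (16.7% and 50%, against 18.6% and 22.0% of all genes), a difference that was not tested.

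Ratios of counts within a library do not depend on how libraries are scaled, and for a given pair of genes their lengths cancel between libraries. Per count of Ndufs7, Ndufs3 had 0.869, 2.03 and 0.631 counts in the pool A libraries and 0.177, 0.0884 and 0.118 in the pool B libraries, with every pool A value above every pool B value. The balance between mRNAs for these core subunits of the same enzyme thus differed between the pools. This pair was chosen after its values were seen and is given as a description.

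Accessory subunits surround the core and support its assembly and stability. Of 28 tested, 8 were higher with pool A, 3 higher with pool B and 17 did not pass, with a median log2 fold change of 0.28. Those calls are 28.6% and 10.7% of them, against 18.6% and 22.0% of all genes, a difference that was not tested. Ndufb2, of the membrane arm, had 85.7, 74.0 and 76.2 CPM with pool A and 16.7, 17.5 and 20.1 CPM with pool B. Its replicates were tight within each pool, and its log2 fold change was 2.26 (SE 0.22, edgeR adjusted p = 2.10e-09). Ndufa5, an accessory subunit of the matrix arm, followed with 22.0, 24.5 and 28.5 CPM against 6.14, 7.67 and 7.57 CPM, a log2 fold change of 1.95 (SE 0.35, edgeR adjusted p = 5.36e-05). Ndufab1, the mitochondrial acyl carrier protein, was higher with pool A by 1.31 ± 0.30 (SE) on the log2 scale, and Ndufa13, also known as Grim-19, by 0.86 ± 0.22 (SE).

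In the other direction, Ndufa8 had 15.5, 10.7 and 19.8 CPM with pool A and 39.5, 43.3 and 35.9 CPM with pool B. Every pool B value was above every pool A value, and the log2 fold change was -1.22 (SE 0.27, edgeR adjusted p = 0.000698). Ndufb9, from the membrane arm, had a log2 fold change of -0.94 (SE 0.17, edgeR adjusted p = 6.23e-05). Of the accessory calls, Ndufc2, Ndufa12, Ndufa11, Ndufs4 and the called Ndufv3 row (log2 fold changes 0.83, 1.38, 1.18, 0.91 and -0.59) each lost the threshold when a single library was left out. Pool A replicate 1 was such a library for Ndufc2, Ndufa12 and Ndufs4 (adjusted p 0.066, 0.0544 and 0.163), pool B replicate 1 for Ndufc2 and Ndufa12 (0.081 and 0.0823) and pool A replicate 3 for Ndufa11 and Ndufv3 (0.0533 and 0.106). Leaving out replicate 2 of pool B also ended the calls of Ndufc2 and Ndufv3 (0.053 and 0.104), replicate 3 of pool B that of Ndufs4 (0.0928) and replicate 2 of pool A that of Ndufv3 (0.0518). The Ndufs4 call was lost with total counts (0.0565) and that of Ndufv3 with upper-quartile factors (0.0581).

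**Figure D2:**
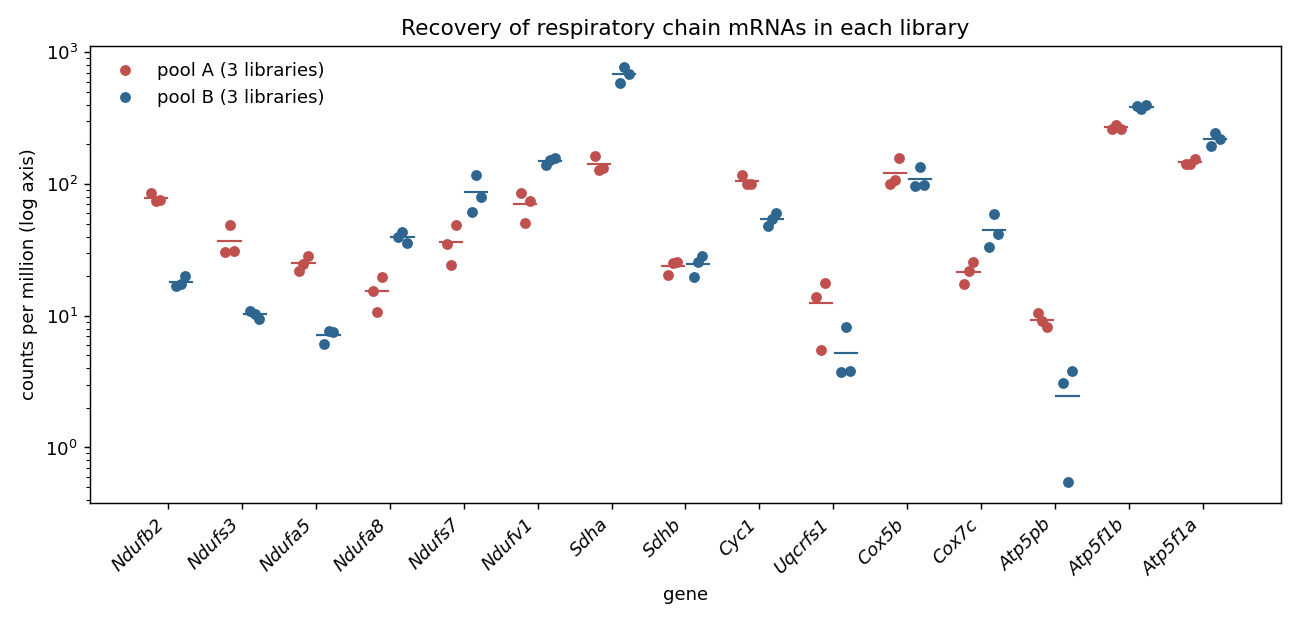
CPM of 15 members in each library (vertical log axis; points are libraries, short lines the mean of 3), pool A in red and pool B in blue. Ndufb2 lies at 74.0 CPM and above with pool A and at 20.1 CPM and below with pool B, Sdha shows the opposite order, and Cox5b and Sdhb show overlapping pools.

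Since reads of neighbouring or overlapping genes can be shared when the strand setting is not stated, the surroundings of these genes were read from the table, which runs in genomic order. Ndufb2 overlaps Braf in RefSeq, and Braf did not pass (log2 fold change 0.29, edgeR adjusted p = 0.157). Within 3 rows of Ndufb2, Dennd2a and Mrps33 were higher with pool B (-2.29 and -1.05), the opposite direction to Ndufb2. Wasl, the third row after Ndufa5, was higher with pool A like Ndufa5, by 1.48 on the log2 scale (edgeR adjusted p = 1.17e-07), and had between 277 and 406 counts with pool A and between 74 and 123 with pool B. The rows beside Sdha, Ccdc127 and Pdcd6, had log2 fold changes of -0.02 and 0.83 and did not pass, and Sdha overlaps the pseudogene Eif1-ps5 in RefSeq. Of the 32 called member rows, 15 overlap another gene in RefSeq, as do 12 of the 53 tested rows that did not pass, and what overlap contributes to their counts was not tested.

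Complex II, or succinate dehydrogenase, also belongs to the citric acid cycle and has 4 subunits, all nuclear. Its difference lay in Sdha, the flavoprotein that oxidises succinate. Sdha had 162, 129 and 132 CPM with pool A and 584, 779 and 680 CPM with pool B, groups far apart. Its means, each with the SD of 3 libraries, were 141 ± 18 and 681 ± 98 CPM. Pool B was 4.34-fold higher. The log2 fold change was -2.12 (SE 0.15, edgeR adjusted p = 2.60e-12) and stayed between -2.27 and -2.01 over the alternatives run.

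Sdhb, Sdhc and Sdhd did not pass the threshold. Sdhb, the iron-sulfur subunit that binds Sdha, had 20.3, 25.3 and 25.7 CPM with pool A and 19.8, 25.7 and 28.4 CPM with pool B, with overlapping ranges and a log2 fold change of 0.09 ± 0.28 (SE). The membrane anchors Sdhc and Sdhd had log2 fold changes of -0.34 ± 0.53 and 0.49 ± 0.44 (SE), with wide errors on few counts. Per count of Sdhb there were between 5.08 and 7.97 counts of Sdha in the pool A libraries and between 24.0 and 30.3 in the pool B libraries. Without Sdha, complex II summed to 44.9 ± 10.2 and 46.2 ± 13.7 CPM (SD, n = 3 each).

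Complex III had smaller differences than the ends seen in complexes I and II. Of its 10 tested rows, 3 were higher with pool A, 1 with pool B and 6 did not pass, so that 40.0% were called, against 40.6% of all genes. Leaving out pool A replicate 1 took the calls towards pool A from 3 to 1. Cyc1, the haem-bearing cytochrome c1, had 117, 99.7 and 101 CPM with pool A and 48.4, 54.2 and 60.2 CPM with pool B, without overlap. Its log2 fold change was 1.11 (SE 0.18, edgeR adjusted p = 9.85e-06). Uqcrfs1, the Rieske iron-sulfur protein that passes electrons to cytochrome c1, had a larger but less certain log2 fold change of 1.42 ± 0.52 (SE). Its pool A values of 13.8, 5.54 and 17.9 CPM overlapped the pool B values of 3.75, 8.21 and 3.78 CPM, and the call (edgeR adjusted p = 0.0302) was lost with total counts (0.0527), with the replicate number as a block (0.0645) and without replicate 1 or 3 of pool A (0.104 and 0.154) or of pool B (0.0924 and 0.0989). The core protein gene Uqcrc1 was higher with pool A by 0.66 ± 0.20 (SE) on the log2 scale, with an adjusted p of 0.0898 without pool A replicate 1.

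The single complex III call towards pool B was 1 of 2 rows named Uqcrb, a subunit that binds quinone. That row (ENSRNOG00000024967) had 16.3, 19.4 and 9.10 CPM with pool A and 42.6, 31.8 and 36.3 CPM with pool B (log2 fold change -1.16, SE 0.30, edgeR adjusted p = 0.00298). In the other row (ENSRNOG00000032204) the ranges overlapped, with a log2 fold change of -0.15 (SE 0.39). How reads were divided between these like-named genes is not stated, so both values are uncertain. Cytochrome c itself, Cycs, had between 6 and 15 counts with pool A and between 3 and 7 with pool B, too few to pass the filter, and was not tested.

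Complex IV is cytochrome c oxidase. Of its 22 rows, 14 were tested, 1 was higher with pool A, 2 were higher with pool B and 11 did not pass. The calls are 7.14% and 14.3% of those tested, against 18.6% and 22.0% of all genes, a difference that was not tested. Cox5b, the member with the most counts, had 100, 107 and 157 CPM with pool A and 97.5, 135 and 97.6 CPM with pool B, ranges that overlapped in part, and a log2 fold change of 0.29 ± 0.17 (SE). Cox6a1 had 103.6, 91.0 and 98.8 CPM against 106, 94.7 and 87.8 CPM, and Cox4i1, the ubiquitous form of the regulatory subunit IV, had 58.3, 47.1 and 71.8 CPM against 89.0, 63.5 and 74.2 CPM. None of these 3 passed. Nor did Cox5a, with the highest log2 fold change of the complex, 1.27, except when replicate 3 of pool B was left out (2.01, adjusted p 0.0398). Toward pool B, Cox7c had 17.4, 21.8 and 25.7 CPM with pool A and 33.1, 59.7 and 41.6 CPM with pool B (log2 fold change -0.90, SE 0.26, edgeR adjusted p = 0.00734) that became 0.0714 without pool B replicate 2.

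Complex IV has tissue-specific isoforms, and those of muscle, lung or testis were nearly absent from the recovered RNA. Cox4i2, Cox7b2 and Cox8c had 0 counts in all 6 libraries. Cox7a1, Cox8b and Cox6b2 had at most 5 counts in a library, and the muscle form Cox6a2 had at most 19 counts, in pool A replicate 3. The ubiquitous forms Cox4i1, Cox6a1, Cox6b1, Cox7b and Cox8a were recovered with both pools. One of 2 rows named Cox6b1 (ENSRNOG00000024309) was higher with pool B, with 34.2, 42.7 and 52.4 CPM against 79.1, 88.7 and 80.2 CPM, a log2 fold change of -0.80 (SE 0.19, edgeR adjusted p = 0.00138). The other Cox6b1 row (ENSRNOG00000034161) had a log2 fold change of -0.50 (SE 0.46). Cox8a, Cox7b and Cox7a2l, the last a factor that joins complexes III and IV into supercomplexes, had log2 fold changes of 0.38, 0.31 and -0.10 and did not pass. The sign of the Cox7a2l value turned with upper-quartile factors (0.00071).

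The only complex IV row higher with pool A was Ndufa4l2, a gene induced by low oxygen whose product is related to the complex IV subunit Ndufa4. It had 31.2, 20.6 and 22.0 CPM with pool A and 14.0, 14.8 and 12.5 CPM with pool B (log2 fold change 0.99, SE 0.32, edgeR adjusted p = 0.0132), and 0.111 without pool A replicate 1. Ndufa4 had 39.6, 37.2 and 38.9 CPM against 30.0, 22.4 and 34.1 CPM, also without overlap. Its log2 fold change of 0.55 ± 0.24 (SE) did not pass (edgeR adjusted p = 0.0707), except with upper-quartile factors (0.0308).

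Of 15 complex V genes tested, 6 were higher with pool A, 2 were higher with pool B and 7 did not pass. The calls are 40.0% and 13.3% of those tested, against 18.6% and 22.0% of all genes. Of the 6 calls towards pool A, those of Atp5f1e, Atp5mc1 and Atp5mf were lost both with total counts alone and without pool B replicate 3. The median log2 fold change was 0.22, and 0.44, 0.45 or 0.58 when replicate 2 of pool A, replicate 1 of pool B or replicate 2 of pool B was left out. Atp5f1a and Atp5f1b, the alpha and beta subunits that form the catalytic head, were slightly higher with pool B. Atp5f1b had 263, 283 and 262 CPM with pool A and 390, 374 and 395 CPM with pool B, tight groups that did not overlap. Its log2 fold change was -0.37 (SE 0.13, edgeR adjusted p = 0.023). Atp5f1a had 142, 142 and 154 CPM against 194, 244 and 221 CPM, a log2 fold change of -0.44 (SE 0.14, edgeR adjusted p = 0.0135). The folds kept their direction when single libraries were left out, but the calls did not all hold. Both calls were lost with upper-quartile factors (adjusted p 0.1004 for Atp5f1b and 0.0559 for Atp5f1a), that of Atp5f1b also without replicate 1 or 3 of pool A (0.0622 and 0.116) or replicate 3 of pool B (0.0692), and that of Atp5f1a without pool B replicate 2 (0.0641). In these left-out fits the log2 fold changes were -0.36, -0.29 and -0.35 for Atp5f1b and -0.38 for Atp5f1a. The alpha and beta mRNAs kept step with each other: per count of Atp5f1a there were 1.85, 1.99 and 1.70 counts of Atp5f1b in the pool A libraries and 2.01, 1.53 and 1.79 in the pool B libraries.

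Of 10 tested genes of the membrane sector and peripheral stalk, 4 were higher with pool A and 6 did not pass. Among all genes, 18.6% were called towards pool A and 22.0% towards pool B. Neither the difference from these shares nor that from the catalytic head was tested. The calls of Atp5pb, Atp5mf and Atp5mc1 were each lost in fits that left out a single library. The 6 that did not pass include the peripheral stalk genes Atp5po, Atp5pd and Atp5pf (log2 fold changes 0.22, -0.01 and -0.09). Atp5pb, the b subunit of the peripheral stalk, had 10.6, 9.10 and 8.16 CPM with pool A and 3.07, 0.548 and 3.78 CPM with pool B. The resulting log2 fold change was 1.97 (SE 0.62, edgeR adjusted p = 0.0124), but it rests on pool B counts of 9, 1 and 10, and the adjusted p was 0.0506 when replicate 2 of pool B was left out and 0.0603 when replicate 1 of pool A was. Atp5mf, the f subunit of the membrane sector, had 32.0, 30.5 and 39.5 CPM against 21.8, 24.6 and 20.1 CPM and a log2 fold change of 0.76 ± 0.26 (SE). That call was lost with total counts (adjusted p 0.0629) and without pool A replicate 3 (0.0638) or pool B replicate 3 (0.0644). Atp5if1, which encodes the inhibitor of ATP hydrolysis, was higher with pool A by 0.67 ± 0.17 (SE) on the log2 scale, although pool B replicate 2, at 139 CPM, lay within the pool A range of 135 to 179 CPM. The central stalk gene Atp5f1d did not pass (-0.14). Atp5f1e, the small epsilon subunit of the central stalk, passed narrowly (0.63, edgeR adjusted p = 0.0495) and not under 10 of the 14 alternatives, among them each left-out library but pool A replicate 1.

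The c subunit that forms the rotating ring is encoded by 3 genes, Atp5mc1, Atp5mc2 and Atp5mc3, which are known to give the same mature protein with different import sequences. Atp5mc1 and Atp5mc2 were higher with pool A, and Atp5mc3 did not pass. Atp5mc2 had 103, 106 and 134 CPM with pool A and 80.4, 92.0 and 83.2 CPM with pool B (log2 fold change 0.57, SE 0.16, edgeR adjusted p = 0.00525). Atp5mc1 had 38.5, 50.2 and 46.4 CPM against 31.4, 32.3 and 28.0 CPM, a log2 fold change of 0.71 ± 0.23 (SE), with a call (edgeR adjusted p = 0.0149) lost with total counts (0.0598) and without pool A replicate 2 (0.0749) or pool B replicate 3 (0.0589). Atp5mc3 had 21.4, 26.9 and 15.7 CPM against 34.1, 37.8 and 31.0 CPM. Its ranges did not overlap, but its log2 fold change of -0.53 ± 0.28 (SE) passed with total counts (adjusted p 0.0481) and not with TMM (0.134). Per count of Atp5mc3 there were between 3.96 and 8.54 counts of Atp5mc2 in the pool A libraries and between 2.36 and 2.68 in the pool B libraries. The difference between the c subunit genes was not tested.

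**Figure D3:**
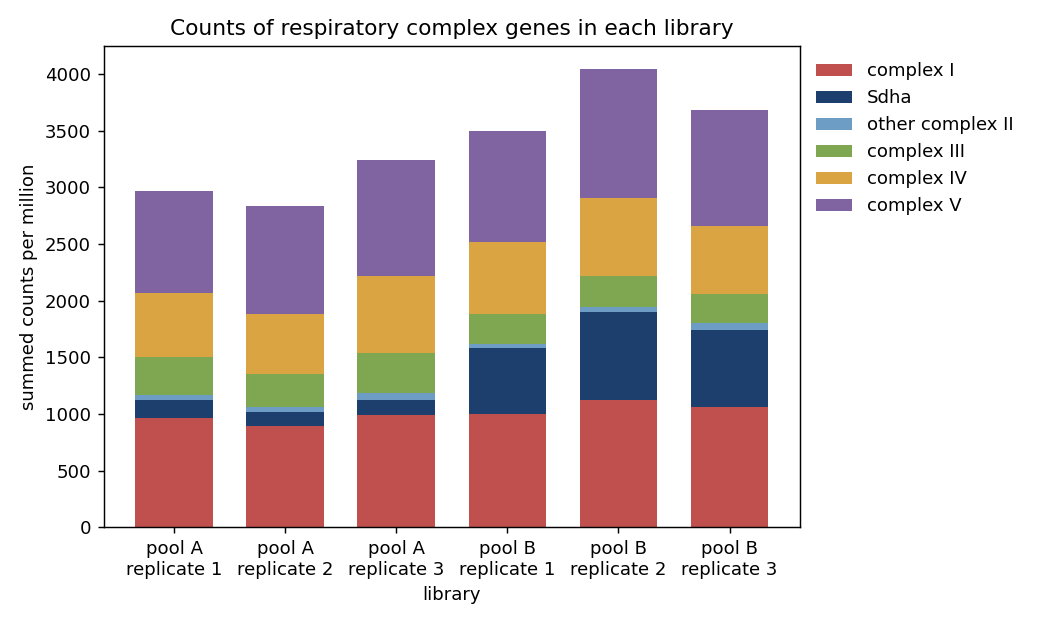
Summed CPM of the respiratory complexes in each library (stacked bars, 1 library per bar), with Sdha shown apart from the rest of complex II. The Sdha block is large in the 3 pool B bars and small in the 3 pool A bars.

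Summed over the members, pool A libraries held 3083, 2932 and 3345 CPM and pool B libraries 3614, 4135 and 3801 CPM. The members took 0.312% of the counts with pool A and 0.385% with pool B, or 3120.1 ± 209 and 3849.9 ± 264 CPM (SD, n = 3 each), with no overlap. Sdha alone carried most of that gap. Without it the pool A libraries held 2921, 2804 and 3212 CPM and the pool B libraries 3030.0, 3356 and 3120.5 CPM, which overlapped. Complex I summed to 950.1 ± 52 CPM with pool A, against 1063 ± 60.2 CPM with pool B (SD, n = 3 each). Complex II summed to 186 ± 15 CPM with pool A and 727 ± 106 CPM with pool B (SD, n = 3 each), nearly all of the difference from Sdha. Complex III held 327 ± 34 and 266 ± 7 CPM, complex IV 594 ± 74 and 640.2 ± 46 CPM, and complex V 956 ± 64 and 1047 ± 82 CPM (SD, n = 3 each). These sums mix mRNAs of different length and describe recovery, not the amount of each complex.

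Assembly factors of complex I help build the enzyme without staying in it. Of the 8 Ndufaf genes tested, Ndufaf3 alone passed (12.5%, against 40.6% of all genes, not tested), with 52.6, 37.6 and 44.5 CPM against 29.7, 38.3 and 32.9 CPM and a log2 fold change of 0.57 ± 0.23 (SE). Its edgeR adjusted p of 0.0458 is near the threshold and was 0.156 with total counts, 0.0683 with no filter, 0.0671 with the replicate number as a block, and 0.215, 0.139 and 0.104 when replicate 1 of pool A, replicate 1 of pool B or replicate 3 of pool B was left out. These genes had low counts, with a median of 24 per library, and a median standard error of 0.48. Ndufaf2 had the lowest fold change among them, -0.92 ± 0.39 (SE), with an adjusted p of 0.0635, and passed with total counts (0.0291), other filters (0.0418 and 0.048), or when replicate 1 of pool A (0.0161) or replicate 2 of pool B (0.0233) was left out.

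Genes around the pathway were taken from lists of assembly factors outside the name rule, regulators of mitochondrial biogenesis, and carriers of the inner and outer membranes. Of 36 tested assembly factors, 5 passed the threshold in favour of pool A and 6 in favour of pool B, or 13.9% and 16.7%, against 18.6% and 22.0% of all genes. Timmdc1, a complex I assembly factor, had 21.2, 28.9 and 30.1 CPM with pool A and 103.3, 147 and 131 CPM with pool B (log2 fold change -2.11, SE 0.20, edgeR adjusted p = 1.40e-09). Cox10, which makes the haem of complex IV, was higher with pool B by a log2 fold change of -1.74 ± 0.36 (SE). Dmac2 and Atpaf1, assembly factors of complex I and of complex V, were higher with pool A by 1.03 ± 0.25 and 1.60 ± 0.49 (SE), Atpaf1 with an adjusted p of 0.0957 without pool A replicate 2.

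Of 19 tested regulators, 1 favoured pool A and 3 pool B (5.26% and 15.8%, beside the same shares of all genes). Ssbp1, which coats single-stranded mitochondrial DNA, had 24.4, 15.0 and 18.8 CPM with pool A and 181, 180.1 and 210.0 CPM with pool B (log2 fold change -3.13, SE 0.19, edgeR adjusted p = 2.59e-13). Gabpb2, a partner of the factor GABP, was higher with pool B, at -1.47 (SE 0.22) on the log2 scale. Nrf1, the gene of nuclear respiratory factor 1, was also higher with pool B, at -0.52 (SE 0.16, edgeR adjusted p = 0.0105). Tfb1m, a mitochondrial rRNA methyltransferase, was higher with pool A, by 1.30 ± 0.40 (SE), and its adjusted p was 0.055 or 0.0545 when replicate 1 of pool A or replicate 3 of pool B was left out. Of 7 tested carriers and channels, 3 favoured pool A and 1 pool B (42.9% and 14.3%). The phosphate carrier Slc25a3, which supplies complex V, had 95.5, 108 and 114 CPM with pool A and 15.0, 19.2 and 12.5 CPM with pool B (log2 fold change 2.93, SE 0.21, edgeR adjusted p = 8.97e-12). The adenine nucleotide translocase Slc25a4 was higher with pool A by 0.73 ± 0.19 (SE), and the porin Vdac3 was higher with pool B, at -1.58 ± 0.19 (SE).

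**Figure D4:**
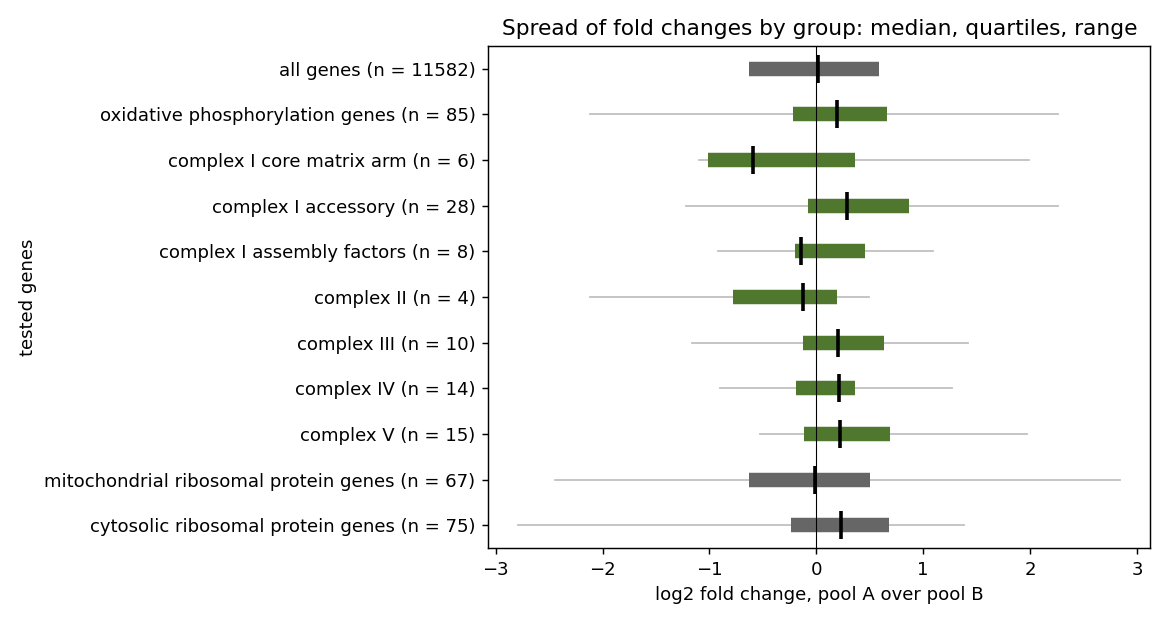
Log2 fold change of pool A over pool B by group of tested genes: black ticks are medians, thick bars run between the quartiles and thin lines over the full range (left out for all genes). The 6 core subunits of complex I have the widest quartile bar of the groups shown, and complex IV the narrowest.

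Ribosomal protein genes, also short and widely expressed, were set beside these genes. Of 67 tested mitochondrial ribosomal protein genes, 11 favoured pool A and 12 pool B (16.4% and 17.9%, against 18.6% and 22.0% of all genes), with a median log2 fold change of -0.01. Of 75 tested cytosolic ribosomal protein genes, 27 favoured pool A and 13 pool B (36.0% and 17.3%), with a median of 0.23. The interquartile width was 1.37 for the 6 core subunits of complex I, 0.94 for its 28 accessory subunits, 0.76 for complex III, 0.55 for complex IV and 0.80 for complex V, beside 1.13 and 0.91 for the mitochondrial and cytosolic ribosomal protein genes. The differences between these groups were not tested.

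A sequence feature that the name rule did not use was looked for in front of the genes. Nuclear respiratory factor 1 (NRF-1) is known to control many respiratory genes and binds a GC-rich palindrome. Its core letters GCGCATGCG, or CGCATGCGC on the other strand, were searched in the 250 bases before the gene start in RefSeq promoters of the GRCr8 assembly. Matches can overlap, and a promoter was counted once however many it held. They were found in 9 of the 82 matched members (11%), against 1.35% of all 33469 promoters. The set of all promoters is not limited to genes tested here. No set of expressed genes was compared, so the gap may not be particular to these members. The members were Atp5mc2, Atp5me, Atp5mg, Atp5po, Cycs, Ndufa11, Ndufaf4, Ndufaf5 and Uqcrc1. The 3 of them that were higher with pool A, and cytochrome c, are printed 5′ to 3′ on the gene's strand, with every letter of a match on either strand in capitals, to show the letters they share:
Atp5mc2, chr7:135678251-135678289, minus strand: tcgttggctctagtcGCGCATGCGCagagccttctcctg
Ndufa11, chr9:1637502-1637540, plus strand: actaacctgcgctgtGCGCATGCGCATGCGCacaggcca
Uqcrc1, chr8:118468169-118468207, plus strand: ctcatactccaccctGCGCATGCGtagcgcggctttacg
Cycs, chr4:80984902-80984940, minus strand: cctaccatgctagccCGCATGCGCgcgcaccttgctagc

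Promoter DNA is not part of the RNA that was pulled down, so the motif describes the promoters searched and not the recovery. Log2 fold changes of the printed genes were 0.57 for Atp5mc2, 1.18 for Ndufa11 and 0.66 for Uqcrc1, and Cycs was not tested. Atp5me, Atp5mg, Atp5po, Ndufaf4 and Ndufaf5 did not pass, with log2 fold changes of 0.91, 0.15, 0.22, 0.42 and -0.17. Atp5me passed with limma-voom (1.17, adjusted p 0.0371) and without pool B replicate 2 (1.49, adjusted p 0.0187). A match is a run of letters, not a measured site.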

How the data were processed

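RNA pull-down libraries of psoralen-treated GH4C1 cells, 3 with oligo pool A and 3 with oligo pool B, were compared. The deposited table holds raw counts per rat gene with Ensembl identifiers; per the submitters' processing notes STAR and featureCounts were used, and their settings, the genome build, the annotation and the use of strand are not given in the sources used here. The deposited signal columns, the authors' mean per pool, were not used.

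From the counts, genes passing edgeR's expression filter were tested with edgeR 4.0.16 in R 4.3.3 (TMM, quasi-likelihood, pool as the only term, two-sided, all 6 libraries); standard errors come from the fold change and F statistic. The test was checked on simulated data. 1 further row that matches the name rule and 1 marker gene are not reported here and entered no count, sum or median. Of 98 members, 85 were tested; the 13 others include 5 at 0 in all libraries. DESeq2 1.42.0, limma 3.58.1, other scalings and filters, a replicate block, a test against a 1.5-fold change and left-out libraries were alternatives. Totals were between 1826390 and 3685899; floors cover counting error only.

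Members and lists were chosen with earlier results of these data known. Named genes were, per complex, up to 3 per direction with the largest fold change past the threshold, non-overlapping CPM and a mean of at least 10 counts, the member with the most counts, and the isoform families; of other lists, up to 2 per direction. The members Ndufa11, Ndufa12, Ndufa13, Ndufab1, Ndufb9, Ndufc2, Ndufs1, Ndufs4, Ndufv2, Ndufv3, Ndufaf2, Ndufaf4, Ndufaf5, Sdhb, Sdhc, Sdhd, Uqcrfs1, Uqcrc1, Cox5a, Atp5f1d, Atp5f1e, Atp5if1, Atp5me, Atp5mg, Atp5pd, Atp5pf and Atp5po fall outside this rule and were chosen after their values were seen. The regulator Nrf1 was likewise chosen after its values were seen. Genes sharing names, sequence or position with others can share reads. Motif letters come from RefSeq promoters (GRCr8).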

Additional observations from a re-analysis of the deposited data

How the results depend on the processing

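Of 583 refits of the named genes, 539 kept their direction and side of the threshold, 39 lost the call, 2 gained it and 3 reversed. Among these refits the reversals were all of Cox7a2l, which was never past the threshold (0.00071 with upper-quartile factors, and from -0.23 to 0.092 without a library). Members discussed outside the naming rule and never past the threshold also turned. Atp5pd kept its sign in 7 of 14 alternatives, Atp5mg in 11 of 14 and Ndufaf5 in 11 of 13. Sdhb, Atp5f1d, Atp5pf and the uncalled Uqcrb row kept it in 12 of 14, Sdhc in 12 of 13 and Atp5po in 13 of 14. Apart from the test against a 1.5-fold change, 15 of the 32 called members held their call in every setting run, among them Ndufb2, Ndufs3, Sdha and Cyc1, and 46 of the 53 others never gained one. Against a 1.5-fold change, by construction a stricter test, 6 members favoured pool A and 6 pool B, beside 1156 and 1521 of all genes. Without a library, from 12 (pool A replicate 1) to 19 members were higher with pool A, beside from 1856 to 2046 of all genes. Part of the loss follows from fewer libraries. With total counts alone the median log2 fold change was 0.055 for the members and 0.069 for complex IV. That scaling moved the median over all genes by -0.14. The complex V median ranged from 0.16 to 0.58 without a library, the highest without pool B replicate 2. Same-numbered libraries did not deviate together (r of 0.0429, -0.0142 and 0.0225). With 3 libraries per pool this cannot settle whether the numbers pair samples, and the labels do not say. With the replicate block 17 members favoured pool A and 12 pool B, beside 2085 and 2476 of all genes. Protein length and identity were not analysed here. Low counts limit Cycs, the assembly factors and Atp5pb.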
